A study of Mus musculus with 6 samples.

Results

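The interleukin-1 (IL-1) family was followed in cells sorted from mouse gliomas, as 9 genes for its ligands, antagonist, receptors and decoy receptor: Il1a, Il1b, Il1rn, Il1r1, Il1r2, Il1rap, Il1rl1, Il33 and Il18. They were picked by gene symbol, with earlier results of these data known, and 8 of the 9 were among the 22180 genes tested. Il1rl1, the receptor for IL-33, was not analysed here. Cells of genotype Tie2-Cre,Pfn1fl/fl:Y129F, with Cre under the Tie2 promoter, both Pfn1 alleles floxed and the Y129F form, came from mice 1, 3 and 4 (the Tie2-Cre group). Cells with the same floxed alleles and Y129F form, and without Cre, came from mice 6, 7 and 10 (the no Cre group). Both groups therefore carry the floxed and Y129F alleles. The sources used here give neither the way Cre rearranges them nor the age of the mice. The Tie2 promoter is known to be active in endothelial cells and also in cells of the blood lineage. All cells were taken from the tumor with an antibody against CD105, labelled as tumor-associated endothelial cells, and kept in glioma-conditioned medium for 12 h before RNA was isolated. Total RNA of each mouse was read on 1 Affymetrix Mouse Gene 2.0 ST array, and the series asks how profilin-1 phosphorylation bears on gene expression.

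IL-1 alpha and IL-1 beta bind the same receptor, IL-1R1, which pairs with the accessory protein IL1RAP and signals through MyD88 and IRAK kinases to NF-kappa B and p38. The antagonist encoded by Il1rn occupies IL-1R1 without signalling, and the decoy receptor IL-1R2 binds ligand but lacks the signalling domain. IL-1 alpha is active without cleavage and is released by damaged cells, whereas IL-1 beta and IL-18 are cut by inflammasome caspases. In endothelium, IL-1 is known for inducing chemokines, selectins and other leukocyte adhesion molecules.

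Expression is given as log2 of the deposited intensity, and a change is the Tie2-Cre mean minus the no Cre mean given with limma's standard error (SE). A gene was called higher or lower where the limma p, adjusted over all 22180 genes by Benjamini-Hochberg, lay under 0.05. Array medians over all probe sets lay between 6.64 and 6.69, and the median change over all genes was -0.0042. The arrays came with no detection call, so a dim gene could not be told from background and its fold change is understated. Pecam1, a marker of endothelial cells, lay at 6.24 ± 0.18 with Tie2-Cre and 6.23 ± 0.14 without Cre (SD, n = 3 mice each), and its presence could not be judged from these values. Kdr (6.26 with Tie2-Cre, 6.19 without Cre), Tek (5.68, 5.91) and Emcn (4.28, 4.27) also lay below the median gene (7.12). Eng, the gene of CD105 (11.76, 12.05), and Flt1 (8.68, 7.57) lay above it. So did the endothelial markers Ptprb and Egfl7 (7.29, 7.33). The pericyte marker Pdgfrb (12.06, 11.79) and the fibroblast marker Col1a1 (12.02, 12.08) also lay above the median gene, with the pericyte marker Des near it (7.22, 7.31). The pericyte marker Abcc9 lay below it (7.03, 7.10), and the fibroblast marker Lum lay below it only without Cre (6.23). These markers are examples from longer lists. Brightness cannot be compared between probe sets, and the cell type behind a change was not tested. Xist lay at 5.36 to 6.06 in the Tie2-Cre mice and at 11.16 to 11.44 in the no Cre mice, so genotype and sex cannot be told apart in any value below. In RNA from many cells, fewer cells of a type and less RNA per cell cannot be told apart either.

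Il1a fell and its signalling receptor Il1r1 rose in Tie2-Cre cells, while Il1b, the antagonist Il1rn, the decoy Il1r2, Il33 and Il18 did not pass the threshold. Of the 8 measured members, 1 was higher and 2 were lower. Over all genes, 12.0% were called, 4.78% higher and 7.17% lower. The median change of the 8 was 0.036. The groups of 3 mice did not overlap in 5 of the 8 members, against 31.0% of all genes. The members were chosen with earlier results of these data known, so these counts are no independent evidence.

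The sequences upstream of the start sites of Il1a, Il1b and Il1r1 are shown because Il1a and Il1r1 carried the 2 largest changes and Il1b is the gene next to Il1a that did not pass. They are the 250 bases before each start in the RefSeq promoter table (GRCm38.p6), written 5′ to 3′ on the gene's strand. The window of Il1a is chr2:129309973-129310222 (minus strand), that of Il1b is chr2:129371140-129371389 (minus strand), and those of the 2 starts of Il1r1 are chr1:40224830-40225079 and chr1:40266336-40266585 (plus strand). Capitals mark matches on either strand to TGANTCA, the AP-1 motif, or to a loose kappa B pattern, which is GGG, 5 bases of any kind and CC. The array gave 1 value for Il1r1 and does not part its starts.
Il1a: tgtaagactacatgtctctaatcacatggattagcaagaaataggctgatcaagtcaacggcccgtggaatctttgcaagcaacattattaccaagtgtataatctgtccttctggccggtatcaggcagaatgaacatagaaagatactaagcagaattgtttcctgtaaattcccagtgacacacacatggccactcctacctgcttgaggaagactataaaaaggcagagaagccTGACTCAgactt
Il1b: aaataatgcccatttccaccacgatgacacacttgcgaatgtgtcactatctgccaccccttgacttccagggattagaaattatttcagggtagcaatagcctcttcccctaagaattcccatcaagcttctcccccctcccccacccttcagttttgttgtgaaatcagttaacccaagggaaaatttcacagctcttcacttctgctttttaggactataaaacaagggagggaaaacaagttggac
Il1r1 upstream start: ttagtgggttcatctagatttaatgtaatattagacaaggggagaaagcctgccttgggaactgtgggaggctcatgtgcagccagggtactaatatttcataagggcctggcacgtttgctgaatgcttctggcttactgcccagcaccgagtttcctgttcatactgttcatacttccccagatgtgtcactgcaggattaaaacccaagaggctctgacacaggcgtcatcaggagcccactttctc
Il1r1 downstream start: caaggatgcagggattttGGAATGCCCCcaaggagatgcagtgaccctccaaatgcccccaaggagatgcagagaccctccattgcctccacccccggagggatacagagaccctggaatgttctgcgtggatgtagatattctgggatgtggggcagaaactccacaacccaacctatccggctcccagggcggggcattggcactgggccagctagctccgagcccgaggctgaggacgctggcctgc
Il1a held 1 AP-1 match, TGACTCA, from 12 to 6 bases before the start, and no kappa B match. The downstream window of Il1r1 held 1 kappa B match, GGAATGCCCC, and Il1b and the upstream window of Il1r1 held neither motif. Of all 32851 windows of this length in the table, 6.75% held an AP-1 match and 45.8% a kappa B match. A match is a description of the letters and was not tied to the expression values. All 8 measured members had a window in the table, 12 windows in all. Outside the 4 printed windows, Il1rn had 3 starts, of which the first held 1 AP-1 and 1 kappa B match and the last 1 kappa B match. The window of Il1rap held 6 kappa B matches, some overlapping, and those of Il1r2, Il33 and Il18 held 0 of either motif.

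Il1a, the gene of IL-1 alpha, had log2 intensities of 5.67, 5.52 and 5.40 in Tie2-Cre mice 1, 3 and 4, against 7.53, 7.49 and 8.14 in no Cre mice 6, 7 and 10. All Tie2-Cre mice lay below all no Cre mice, and no Cre mouse 10 was the highest of the 6. The mean was 5.53 ± 0.14 with Tie2-Cre and 7.72 ± 0.36 without Cre (SD, n = 3 mice each). The change was -2.19 (SE 0.17, limma adjusted p 0.000219), with a 95% confidence interval from -2.58 to -1.80 for the measured intensities. This is 4.56-fold lower as measured, and since the dim Tie2-Cre values could not be told from background, the fold has no upper limit here. Among all genes, 34 (0.153%, Il1a among them) had a change of at least this size in either direction.

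Il1b, the gene of IL-1 beta, lies next to Il1a on chromosome 2 in RefSeq and differed far less. It had 5.34, 5.37 and 5.40 in Tie2-Cre mice 1, 3 and 4 and 5.21, 5.19 and 5.24 in no Cre mice 6, 7 and 10. Its groups did not overlap, but they stood only 0.16 apart (SE 0.063, limma adjusted p 0.165), with a 95% confidence interval from 0.012 to 0.30. Set against each other within each array, Il1a minus Il1b was 0.33, 0.16 and -0.0084 in Tie2-Cre mice 1, 3 and 4 and 2.32, 2.30 and 2.90 in no Cre mice 6, 7 and 10. The mean difference between the 2 ligands was thus lower by 2.35 in the Tie2-Cre group, a value given without a test. In both groups Il1b was as dim as Il1a was with Tie2-Cre, so it could not be told from background. A fall of Il1b could hardly have been seen, and the shift mostly restates the change of Il1a (-2.19).

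Il1rn, whose product blocks IL-1R1, had 6.50, 6.26 and 6.48 in Tie2-Cre mice 1, 3 and 4, against 6.46, 6.22 and 6.40 in no Cre mice 6, 7 and 10. The groups overlapped, and the change was 0.051 (SE 0.096, limma adjusted p 0.807), with a 95% confidence interval from -0.17 to 0.27. The log2 difference of agonist and antagonist within an array, Il1a minus Il1rn, was -0.83, -0.74 and -1.08 in Tie2-Cre mice 1, 3 and 4 and 1.07, 1.27 and 1.74 in no Cre mice 6, 7 and 10. That difference moved by -2.24 between the group means, of which the change of Il1a made up -2.19. For Il1b minus Il1rn the shift was 0.11, with means of -1.04 ± 0.14 with Tie2-Cre and -1.15 ± 0.11 without Cre (SD, n = 3 mice each). The brightness of 2 probe sets does not give the ratio of their transcripts, so only the shift between groups can be read.

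**Figure D1:**
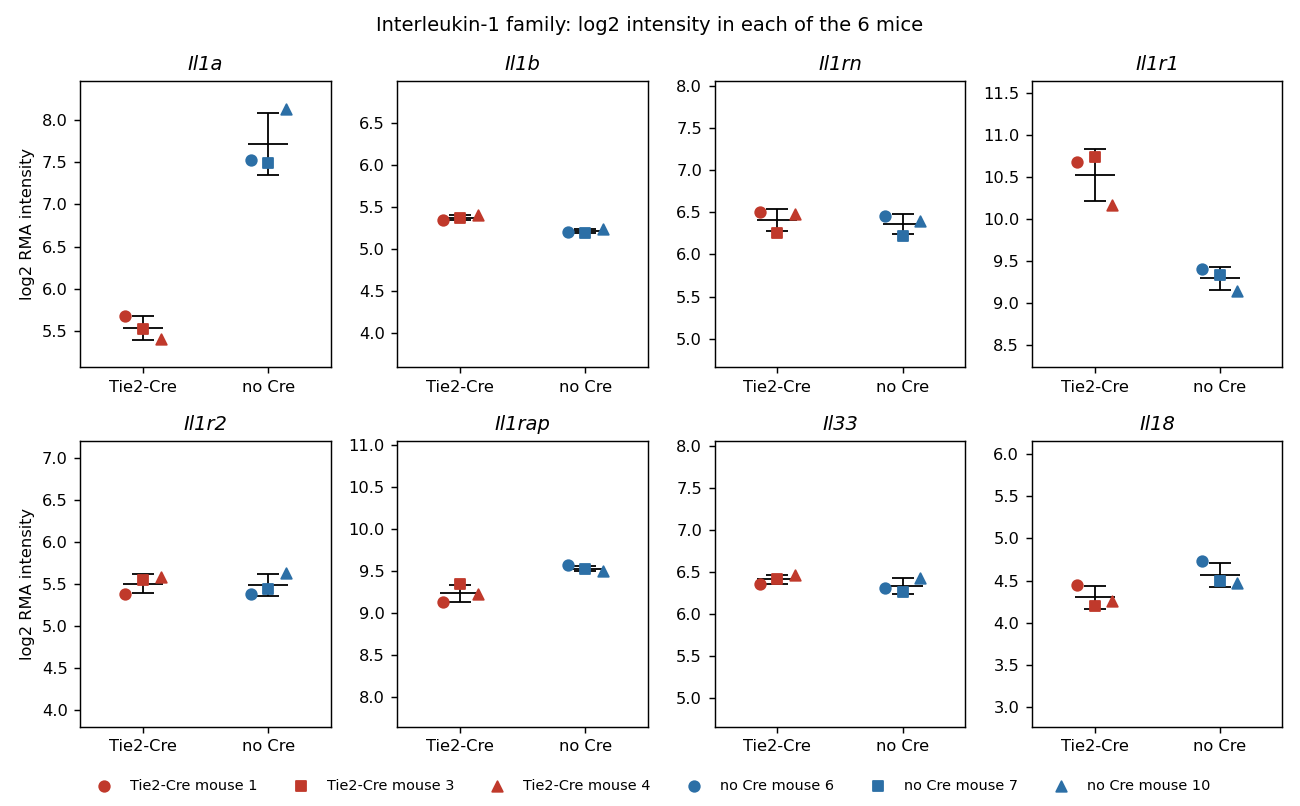
Log2 RMA intensity (vertical axis, every panel spanning the same number of log2 units) of the 8 measured family members in each mouse, Tie2-Cre left and no Cre right, with the mean and SD (horizontal bar and whiskers, n = 3 mice per group). Il1a sits at 5.40 to 5.67 in Tie2-Cre mice and 7.49 to 8.14 in no Cre mice, Il1r1 at 10.16 to 10.74 in Tie2-Cre mice and 9.15 to 9.41 in no Cre mice, and the remaining panels show differences of at most 0.29 between the means.

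Il1r1, the signalling receptor, moved the other way from Il1a. Its log2 intensity was 10.68, 10.74 and 10.16 in Tie2-Cre mice 1, 3 and 4, against 9.41, 9.34 and 9.15 in no Cre mice 6, 7 and 10. The groups did not overlap, and Tie2-Cre mouse 4 lay lowest of its group. The mean was 10.53 ± 0.31 with Tie2-Cre and 9.30 ± 0.14 without Cre (SD, n = 3 mice each), a change of 1.23 (SE 0.15, limma adjusted p 0.00184). This was 2.34-fold higher, with a 95% confidence interval from 1.83-fold to 2.99-fold. A change of at least this size in either direction was seen in 181 genes (0.816%), Il1r1 included.

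Il1rap encodes the accessory chain that IL-1R1 needs for signalling and that the receptors for IL-33 and IL-36 share. It had 9.13, 9.34 and 9.23 in Tie2-Cre mice 1, 3 and 4, against 9.57, 9.52 and 9.50 in no Cre mice 6, 7 and 10. The groups did not overlap, and the change was -0.29 (SE 0.075, limma adjusted p 0.0425), or 1.23-fold lower. Its call was lost when mouse 1, 4, 6, 7 or 10 was left out (limma adjusted p 0.0918 to 0.132). Il1rap was also read by 2 dimmer probe sets, which gave changes of -0.10 (SE 0.096) and -0.15 (SE 0.13) and did not pass. With the mean of the 3 probe sets the change was -0.18 (limma adjusted p 0.188). The difference Il1r1 minus Il1rap within an array was 1.54, 1.39 and 0.93 in Tie2-Cre mice 1, 3 and 4 and -0.16, -0.18 and -0.35 in no Cre mice 6, 7 and 10, so the 2 chains of the receptor changed unequally.

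Il1r2, the decoy receptor, had 5.38, 5.55 and 5.59 in Tie2-Cre mice 1, 3 and 4, against 5.38, 5.44 and 5.63 in no Cre mice 6, 7 and 10. The groups overlapped, with a change of 0.020 (SE 0.092, limma adjusted p 0.929) and a 95% confidence interval from -0.19 to 0.23. Signalling receptor minus decoy, Il1r1 minus Il1r2, was 5.30, 5.18 and 4.58 in Tie2-Cre mice 1, 3 and 4 and 4.03, 3.90 and 3.52 in no Cre mice 6, 7 and 10. The shift between group means was 1.21, which mostly restates the change of Il1r1 (1.23). In both groups Il1r2 was as dim as Il1a was with Tie2-Cre, so it could not be told from background.

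Il33 encodes a nuclear cytokine that is released on cell damage. Its log2 intensity was 6.36, 6.41 and 6.47 in Tie2-Cre mice 1, 3 and 4 and 6.32, 6.26 and 6.43 in no Cre mice 6, 7 and 10, with overlapping groups. The change of 0.079 (SE 0.074, limma adjusted p 0.589) had a 95% confidence interval from -0.093 to 0.25. Il18, a cytokine known for driving interferon gamma in lymphocytes, lay at 4.45, 4.20 and 4.25 in Tie2-Cre mice 1, 3 and 4, against 4.73, 4.49 and 4.48 in no Cre mice 6, 7 and 10. All Tie2-Cre values of Il18 were below all no Cre values, by a narrow margin. Its change was -0.27 (SE 0.10, limma adjusted p 0.14).

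The receptor genes of the family lie side by side on mouse chromosome 1, in the RefSeq order Il1r2, Il1r1, Il1rl2, Il1rl1, Il18r1 and Il18rap, and they did not change together. Il1r1 was higher and Il1rl2 lower, while Il1r2 before them (0.020) and Il18r1 after them (0.0041, SE 0.085, limma adjusted p 0.985) did not pass. Il1rl2, the receptor for IL-36, had 4.89, 4.97 and 4.82 in Tie2-Cre mice 1, 3 and 4 and 5.38, 5.22 and 5.35 in no Cre mice 6, 7 and 10. Il1rl2 changed by -0.42 (SE 0.076, limma adjusted p 0.00971), and this call held whichever mouse was left out. Both Il1rl2 and Il1r2 were among the dimmest 33.3% of genes, so low signal limits what can be said of either. Il18rap, the accessory chain of the IL-18 receptor, did not pass (-0.25, SE 0.12, limma adjusted p 0.258).

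Among 12 other ligands and receptors of the family, 8 were measured, 0 were higher and 1 was lower (Il1rl2). This is 12.5% called, near the 12.0% of all genes, and their median change was -0.011. Il18bp, the secreted inhibitor of IL-18, had means of 7.76 with Tie2-Cre and 7.55 without Cre, and its change of 0.21 (SE 0.074) did not pass. Sigirr, a receptor-like inhibitor of the pathway, also did not pass (-0.074, SE 0.092).

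**Figure D2:**
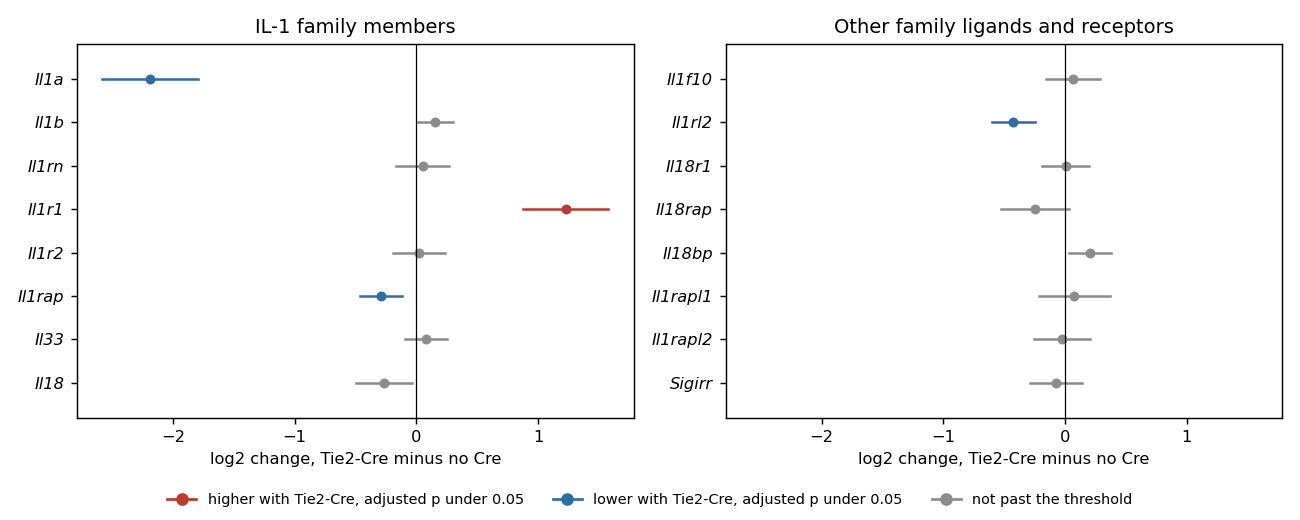
Log2 change, Tie2-Cre minus no Cre (horizontal axis), with its 95% confidence interval for the 8 measured members and the 8 other measured ligands and receptors. Red marks genes higher and blue genes lower with Tie2-Cre at a limma adjusted p under 0.05, and grey the rest: Il1a at -2.19 and Il1r1 at 1.23 stand far from the others, which lie between -0.42 and 0.21.

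Genes that process or release IL-1 and IL-18 showed 1 call among the 19 measured of 20, or 5.26% against 12.0% of all genes. The ATP-gated channel P2rx7, a trigger of the NLRP3 inflammasome, had 7.34, 7.30 and 7.34 in Tie2-Cre mice 1, 3 and 4, against 8.60, 8.56 and 8.51 in no Cre mice 6, 7 and 10. It was 2.35-fold lower (-1.23, SE 0.064, limma adjusted p 2.93e-05), with the groups far apart relative to their spread. Casp1, which encodes the protease that cuts IL-1 beta and IL-18, had means of 5.08 with Tie2-Cre and 5.32 without Cre, and its change of -0.24 (SE 0.082) did not pass. The sensor Nlrp3 changed by -0.070 (SE 0.086) and did not pass either. The list had 0 higher genes and a median of -0.070. Casp1 was as dim as Il1b, so it could not be told from background. Several other genes of the list were about as dim, so low signal limits what the share called can say.

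Of 22 genes that carry the signal from the receptor, 20 were measured, 3 were higher, 1 was lower and 16 did not pass, with a median change of 0.066. This is 20% called against 12.0% of all genes. Myd88, the adaptor of IL-1R1, had 10.49, 10.18 and 9.85 in Tie2-Cre mice 1, 3 and 4, against 9.13, 9.27 and 9.54 in no Cre mice 6, 7 and 10. It was higher by 0.86 (SE 0.17, limma adjusted p 0.0141), a call lost without no Cre mouse 7 (0.0532). Ikbkg, a subunit of the kinase complex that activates NF-kappa B, was higher by 0.48 (SE 0.091, limma adjusted p 0.013), and this held without any 1 mouse. The p38-activated kinase Mapkapk2 was higher by 0.48 (SE 0.12, limma adjusted p 0.0359), a call lost when mouse 1, 3, 6, 7 or 10 was left out (up to 0.11). Irak3, a kinase-like protein that restrains the pathway, was lower by 0.74 (SE 0.17, limma adjusted p 0.0305), with 8.49, 8.43 and 7.78 in Tie2-Cre mice 1, 3 and 4 and 8.97, 9.05 and 8.90 in no Cre mice 6, 7 and 10. Its call was lost without any of the no Cre mice (up to 0.0989). With no Cre mouse 7 left out, 1 gene of this list of 20 was higher and 0 lower.

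**Figure D3:**
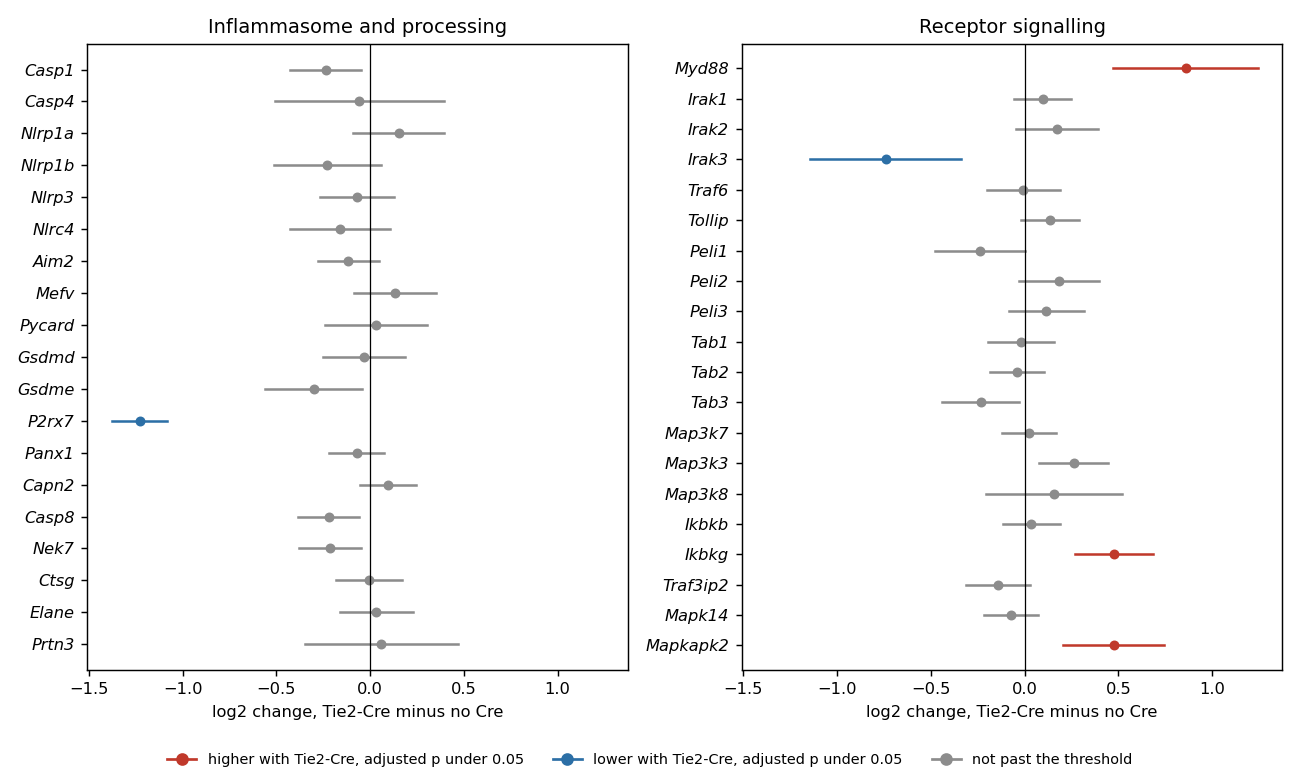
Log2 change, Tie2-Cre minus no Cre (horizontal axis), with its 95% confidence interval for 19 genes of the inflammasome and of ligand processing (left) and 20 genes of receptor signalling (right), coloured by call as red higher, blue lower and grey not past the threshold. P2rx7 at -1.23 stands alone on the left, and Myd88 (0.86), Ikbkg (0.48), Mapkapk2 (0.48) and Irak3 (-0.74) are the 4 calls on the right.

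Genes known to be induced by IL-1 moved both ways. Of 44 listed, 42 were measured, 6 were higher, 12 were lower and 24 did not pass, which is 42.9% called against 12.0% of all genes, and the list median was -0.014. The list holds targets shared with other NF-kappa B signals and includes genes that stood out in earlier results of these data, so its count is no independent evidence.

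On the higher side, Cxcl5, a chemokine for neutrophils, had 11.71, 11.72 and 10.89 in Tie2-Cre mice 1, 3 and 4, against 9.22, 9.15 and 9.93 in no Cre mice 6, 7 and 10 (2.01, SE 0.27, limma adjusted p 0.00257). Nfkbie, an inhibitor of NF-kappa B, was higher by 1.07 (SE 0.14, limma adjusted p 0.00225), with means of 8.14 with Tie2-Cre and 7.07 without Cre. The endothelial selectins Sele (0.88, SE 0.15) and Selp (0.78, SE 0.18) were also higher, and the call of Selp was lost when mouse 1, 3, 6, 7 or 10 was left out (limma adjusted p up to 0.0987). The adhesion molecules of this list did not move together. Vcam1 was lower (-0.78, SE 0.17, limma adjusted p 0.0224), a call lost without any of the no Cre mice (up to 0.0714). Icam1 did not pass (0.51, SE 0.19, limma adjusted p 0.146).

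On the lower side, the inducible nitric oxide synthase Nos2 had 7.79, 7.80 and 6.96 in Tie2-Cre mice 1, 3 and 4 and 10.52, 10.45 and 10.75 in no Cre mice 6, 7 and 10, or 8.32-fold lower (limma adjusted p 0.000144). The collagenase Mmp13 was lower by 1.74 (SE 0.21, limma adjusted p 0.00164). Tnfaip6, a hyaluronan-binding protein, had 6.81, 6.77 and 6.93 in Tie2-Cre mice 1, 3 and 4 and 7.84, 8.02 and 7.94 in no Cre mice 6, 7 and 10 (-1.10, SE 0.079, limma adjusted p 0.000155). Has2, which makes hyaluronan, was lower by 1.51 (SE 0.22, limma adjusted p 0.00434). Named after their values were seen, the chemokine genes Cxcl1 (-0.019, SE 0.18) and Ccl2 (0.12, SE 0.12) and the cytokine Il6 (0.10, SE 0.11) did not pass. The means of Cxcl1, Ccl2 and Il6 were 11.86, 13.13 and 12.73 with Tie2-Cre and 11.88, 13.01 and 12.63 without Cre.

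Tie2-Cre mouse 4 stood apart in the response genes. It had the lowest value of the 3 Tie2-Cre mice in 39 of the 42 (92.9%), against 32.0% of all 22180 genes, and lay a median of 0.45 below the mean of the other 2 mice of its group. Mice 1 and 3 were the lowest in 1 and 2 of the 42. It was the lowest of its group in 2 of the 8 members (25.0%), Il1a and Il1r1, and in 8 of the 20 signalling genes (40.0%), as many as mouse 1. Without mouse 4, 12 response genes were higher and 10 lower, and the change of Il1r1 was 1.41 (limma adjusted p 0.000378). When mouse 1, 3, 7 or 10 was left out, 3 response genes were higher. Without no Cre mouse 6, 7 or 10, there were 8, 6 or 7 lower.

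**Figure D4:**
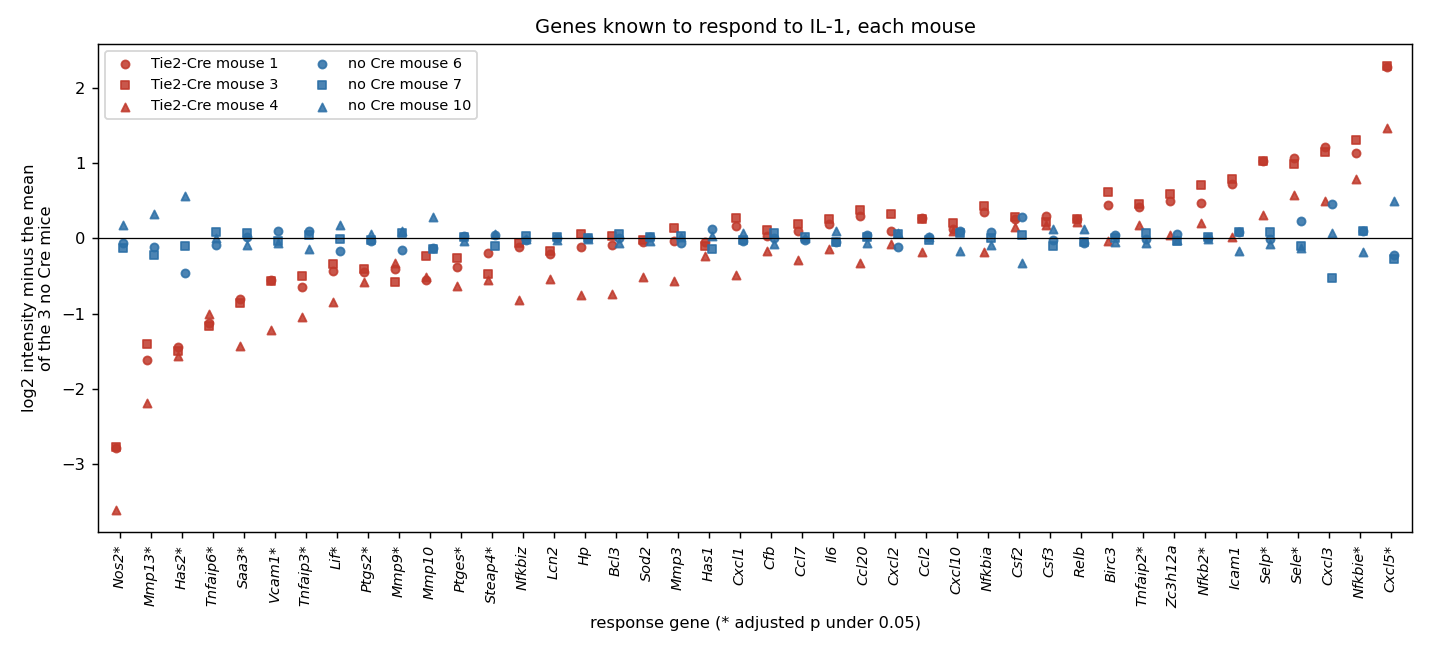
Log2 intensity of 42 measured IL-1 response genes in each mouse minus the mean of the 3 no Cre mice of that gene (vertical axis), with genes ordered by their change (horizontal axis), Tie2-Cre mice in red and no Cre mice in blue, and an asterisk at an adjusted p under 0.05. Genes spread from Nos2 at a change of -3.06 to Cxcl5 at 2.01, and the red triangles of Tie2-Cre mouse 4 lie lowest of the red points in 39 of the 42 genes.

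Lists of markers of other cell types are given beside Il1a and Il1r1, to be read against the 12.0% of all genes that were called. Of 17 markers of microglia and macrophages, a known source of IL-1, 0 were higher and 3 lower (Cd68, Csf1r and Lyz2, 17.6% called, list median -0.023). The summed linear intensity of the 17 was 1909 to 2064 with Tie2-Cre and 2213 to 2318 without Cre. That lower sum came from the 3 called genes, and the other 14 did not pass. Of 12 mesothelial and epithelial markers, 0 were higher and 4 lower (33.3% called), with sums of 1648 to 1851 with Tie2-Cre and 3703 to 4121 without Cre. Most of the difference in that sum came from Upk1b (means 7.20 with Tie2-Cre, 10.49 without Cre) and Upk3b (9.04, 10.40). The other called genes were Bnc1 and Krt19, and 8 of the 12 did not pass. Of 10 fibroblast markers, 5 were higher and 1 lower (60% called, sums 21685 to 24327 with Tie2-Cre and 19546 to 19842 without Cre). Of 10 pericyte and smooth muscle markers, 5 were higher and 0 lower (50% called, sums 30223 to 36239 with Tie2-Cre and 21484 to 22924 without Cre). Of 17 endothelial markers, 1 was higher (Flt1) and 1 lower (Eng), or 11.8% called, with sums of 5181 to 5590 with Tie2-Cre and 5815 to 6040 without Cre. Most of each endothelial sum was Eng alone, the gene of the CD105 used for sorting (means 11.76 with Tie2-Cre and 12.05 without Cre). These sums therefore say little of the other endothelial markers. Neutrophil markers held 0 higher and 1 lower of 10 (10% called, sums 629 to 686 with Tie2-Cre and 635 to 705 without Cre). The part of these markers in the changes of Il1a and Il1r1 was not tested, and no marker is at 0 on this scale, where background adds to every value.

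The 5 genes whose pattern over the 6 mice lay closest to that of Il1a, by the root mean square difference of log2 values centred on each gene's mean, were Tnfsf15 (0.16), F11r (0.21), Cd53 (0.22), Tnfrsf26 (0.24) and Slc25a43 (0.25). Tnfsf15, which encodes a cytokine of the TNF family, had 8.62, 8.62 and 8.30 in Tie2-Cre mice 1, 3 and 4, against 10.64, 10.59 and 10.79 in no Cre mice 6, 7 and 10. F11r encodes a junctional adhesion molecule, Cd53 a tetraspanin of leukocytes, Tnfrsf26 a member of the TNF receptor family and Slc25a43 a carrier of the mitochondrial family. Their changes ran from -2.34 for Cd53 to -2.08 for Slc25a43, beside -2.19 for Il1a. Changes near that of Il1a follow from the way these genes were picked and are not a separate result.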

How the data were processed

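Per the labels, the authors deposited RMA values as intensities on a linear scale from 5.13 to 17822. Affymetrix Expression Console is named in the submitters' processing notes. RMA corrects background, quantile-normalizes arrays and summarises probes. Neither its version nor a genome build is given in the sources used here. The log2 of the deposited values was taken with no further scaling.

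Of 41345 probe sets, 23521 had exactly 1 symbol in the array annotation. The probe set with the highest mean over the 6 arrays stood for each of 22180 genes. All genes were fitted together by lmFit and eBayes of limma 3.58.1 (R 4.3.3), two-sided, and called at a Benjamini-Hochberg adjusted p under 0.05. The 3 arrays per group limit the precision, with a median SD of 0.10 log2 with Tie2-Cre and 0.089 without Cre. The fit was tested on simulated data with far fewer shifted genes than were called here. It found 58.2% of 67 shifts of 0.5 log2, 88.1% of 67 shifts of 1 and 100% of 66 shifts of 2, with 1 false call. A gene that did not pass may therefore still have changed, above all by less than 0.5.

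The members and lists were chosen with earlier results of these data known. Named were all members, up to 4 genes of each pathway list with the smallest p in each direction among those called, and the 5 genes nearest to Il1a. Il18bp, Sigirr, Il18r1, Il18rap, Casp1, Nlrp3, Cxcl1, Ccl2, Il6, Vcam1, Icam1 and the markers fall outside this rule and were named after their values were seen. Further lists held markers of T, NK and innate lymphoid cells (0 higher, 1 lower of 11), mast cells (1 and 0 of 8), astrocytes and glioma (2 and 0 of 8) and oligodendrocytes (0 and 0 of 5 by limma), and sex-linked genes (3 and 1 of 4). Alternatives were other sets of genes, normalizations, probe set rules and limma settings, and leaving out each mouse.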

Additional observations from a re-analysis of the deposited data

How the results depend on the processing

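No paired analysis was possible because the groups share no mouse number. Il1a stayed lower and Il1r1 higher, past the threshold, in all 14 alternatives, with changes of -2.30 to -1.98 (limma adjusted p 1.27e-05 to 0.00247) and 1.12 to 1.41 (0.000378 to 0.0111). The count of lower members was 1 instead of 2, through Il1rap, with all probe sets tested, with centred arrays and with averaged probe sets, and ran from 1 to 2 over mice left out. Il1rap kept its direction throughout, at -0.35 to -0.18 (limma adjusted p 0.0113 to 0.188). Uncalled changes that turned sign were Il1rn (-0.019 with mouse 7 left out, within -0.019 to 0.13) and Il1r2 (-0.0028, -0.02, -0.03 and -0.0022 with mouse 3, 4, 6 or 7 left out, within -0.0297 to 0.0931). A mean log2 of at least 5 removed Il18, and leaving out the dimmest 33.3% of genes removed Il18, Il1b and Il1r2, so low signal limits what can be said of these 3.

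With all probe sets tested, which adjusts p over more tests, 3 response genes were higher and 7 lower, and 0 signalling genes were lower. With the dimmest 33.3% left out, which removes Il1rl2, 0 of the other family genes were lower, and 2 processing genes were lower. With eBayes with trend and robust, 3 processing genes were lower. Over mice left out, response genes numbered 3 to 12 higher and 6 to 10 lower, signalling genes 1 to 3 higher and 0 to 1 lower, and all genes 634 to 903 higher and 910 to 1253 lower. Beyond the settings named here, the cause of these shifts was not tested.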
